A study of Mus musculus with 2 samples.

Results

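The genes described are 4 members of the galectin family, Lgals1, Lgals3, Lgals8 and Lgals9, together with Lgals3bp, which encodes a secreted binding partner of galectin 3. They are 5 of the 55414 genes in the deposited gene table and were found there by their symbols. Polyadenylated RNA was sequenced from mouse RAW246.7 cells (the submitters' spelling), a macrophage-like line, in 1 library of cells under 20% elongation for 24 h (stretched) and 1 library of cells under what the labels call normal strain for 24 h (control). The labels put no figure on the strain of the control, do not say whether the strain was cyclic or static, and name no genetic change or drug in either group. The tissue label reads synovial membrane, but the cells are described here as the cultured line, and the title sets the work in a study of synovitis and osteoarthritis under excessive mechanical load. The members were chosen by name with the counts of these 2 libraries already known, so every difference below is a description of the 2 libraries and carries no p-value, since variation between cultures was not measured.

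Galectins are lectins that bind galactose-containing sugar chains. They are made in the cytosol, leave the cell without a classical secretion signal, and crosslink glycoproteins outside it. Galectin 1 has a lone carbohydrate-binding domain and forms dimers, galectin 3 joins its binding domain to a long flexible tail and is the macrophage surface antigen Mac-2, and galectins 8 and 9 carry a pair of binding domains joined by a linker. Inside cells, galectins also bind sugars that become exposed when an endosome or lysosome is torn. Lgals9 and Lgals3bp are known as genes that interferons can induce.

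The stretched library held 13391645 estimated counts and the control library 14769100, and 12772 genes reached 20 counts over both. The median log2 difference of those genes was -0.0014. Of 12 macrophage markers, 11 reached 20 counts over both libraries, with summed levels of 4316 FPKM in stretched and 3132 FPKM in control, of which Lyz2 gave 2289 and 1320, while Mrc1, with 1 and 4 counts, did not. Of 9 synovial fibroblast markers, 6 had 0 counts in both libraries and the summed level was 0.20 FPKM in stretched and 0.25 FPKM in control; Col1a2, Col3a1, Dcn, Pdpn, Thy1 and Pdgfra were those at 0. The summed levels of 5 T cell markers, 5 B cell markers and 5 endothelial markers were 4.81, 0.56 and 0.61 FPKM in stretched and 6.14, 0.42 and 0.55 FPKM in control, the first of them mostly Lck.

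Lgals9 and Lgals3bp were higher in the stretched library, and Lgals1, Lgals3 and Lgals8 differed by less than 1.5-fold. In bulk RNA a difference in the number of cells with a transcript cannot be told apart from one in the amount per cell. All 5 genes reached 20 counts. A gene was called higher or lower when it reached 20 counts over both libraries, differed at least 2-fold after scaling for depth, and had a 95% counting interval that excluded no difference. By this rule 2 of the 5 were higher and 0 lower, where 3.12% of all 12772 genes were higher and 1.94% lower. A limit of 1.5-fold gave the same counts for the 5, with 6.2% of all genes higher and 3.64% lower. Since the genes were picked with this contrast in view, their share is given beside the background and nothing is read from it. The authors' deposited table lists Lgals9 and Lgals3bp as higher, as it does 2.18% of its 23250 genes. It comes from the same 2 libraries, so it is no independent check.

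**Figure D1:**
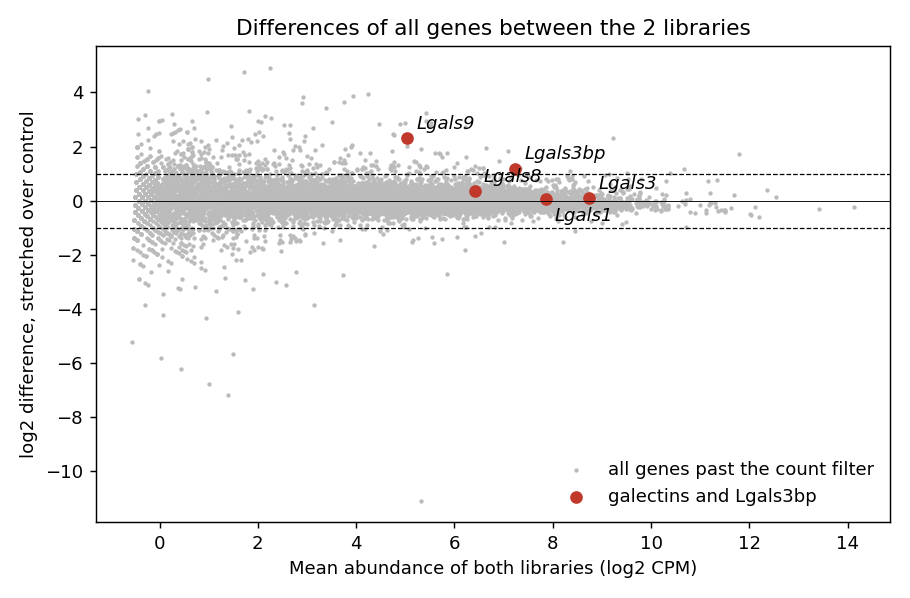
Each grey point is 1 of the 12772 genes with at least 20 counts over both libraries, by mean abundance (x axis, log2 CPM) and log2 difference, stretched over control (y axis); dashed lines mark 2-fold and red points the 5 genes. Lgals9 lies at 2.33 and Lgals3bp at 1.19, while Lgals8, Lgals3 and Lgals1 lie between 0.37 and 0.04.

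Per length of transcript, the order of the 5 genes was the same in both libraries: Lgals3, Lgals1, Lgals3bp, Lgals8 and Lgals9. Levels are given in FPKM, fragments per kilobase of transcript and unit of depth, as computed by the authors, with a 95% counting interval taken from the estimated count. In stretched, Lgals8 and Lgals9 were neighbours whose intervals overlapped, at 35.3 FPKM (33.4 to 37.2) and 33.4 FPKM (31.0 to 35.9). In control the same pair stood apart, at 26.2 FPKM (24.7 to 27.8) for Lgals8 and 6.36 FPKM (5.42 to 7.43) for Lgals9. The level of Lgals3 was 9.27 times that of Lgals9 in stretched and 43.9 times in control. The levels of the 4 galectins summed to 651 FPKM in stretched and 569 FPKM in control, of which Lgals9 made up 5.12% in stretched and 1.12% in control. Lgals3 and Lgals1 together supplied most of the sum in both libraries, with shares of 47.5% and 41.9% in stretched and 49.1% and 45.2% in control.

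**Figure D2:**
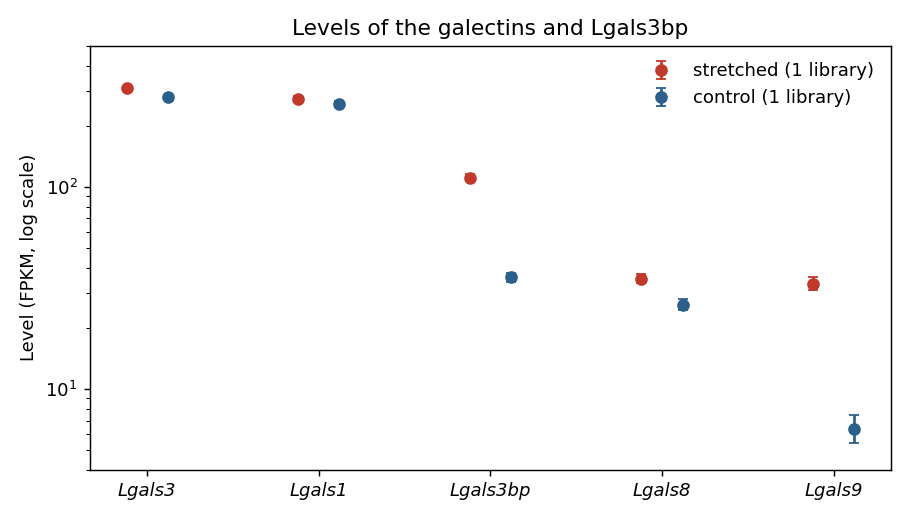
Level of each gene in FPKM on a log axis, 1 point per library, stretched left of control; bars are 95% counting intervals, which do not cover variation between cultures. Lgals9 has 33.4 FPKM in stretched and 6.36 FPKM in control, and Lgals3bp 111 FPKM and 35.8 FPKM, while the points of Lgals3, Lgals1 and Lgals8 lie close together.

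Lgals9 encodes galectin 9, a tandem-repeat galectin known as a ligand of Tim-3 (Havcr2) on T cells and myeloid cells. The gene (ENSMUSG00000001123, GRCm39 chromosome 11, 78853800 to 78875772, minus strand) had 737 counts in stretched and 160 in control. The stretched library was 5.01-fold higher after scaling, with a counting interval of 4.23 to 6.00, a log2 difference of 2.33 that ranked 59 among 12772 genes. Its level of 33.4 FPKM ranked 2299 of all genes in stretched, and its 6.36 FPKM ranked 7930 in control. The authors' deposited table gives a log2 fold change of 2.33.

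The count of Lgals9 lay almost wholly on the short-linker form of its transcript in both libraries. GENCODE annotates 4 transcripts for the gene. The 1520-base coding transcript, which skips a linker exon of 93 bases, had 727 counts in stretched and 148 in control. The 1586-base coding transcript, which holds that exon, had 8 counts in stretched and 12 in control. The short form therefore took 98.6% of the gene's counts in stretched (exact binomial 95% interval 97.5% to 99.3%) and 92.5% in control (87.3% to 96.1%). The log2 difference was 2.42 (2.17 to 2.69) for the short form and -0.43 (-1.95 to 0.95) for the long form, whose counting interval includes both directions. The other coding transcript, of 1074 bases, which has a slightly shorter version of the exon, had 0 counts in both libraries, and the retained-intron transcript had 2 counts in stretched and 0 in control. The sequences below, read from GENCODE M21 transcripts (GRCm38, minus strand), show what separates the forms: the exon at chr11:78969714-78969806 is in capitals, and the 20 bases on each side are those that the short form joins directly.
Lgals9 long form: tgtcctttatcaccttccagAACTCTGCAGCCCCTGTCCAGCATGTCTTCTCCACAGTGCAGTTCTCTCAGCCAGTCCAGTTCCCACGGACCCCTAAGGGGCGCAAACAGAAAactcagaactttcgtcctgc
Lgals9 short form: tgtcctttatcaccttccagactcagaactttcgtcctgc

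Lgals3bp encodes a heavily glycosylated secreted protein, also called 90K or CyCAP, that binds galectin 3 and matrix proteins. The gene (ENSMUSG00000033880, GRCm39 chromosome 11, 118283577 to 118292918, minus strand) had 2826 counts in stretched and 1354 in control. It was 2.28-fold higher in stretched (counting interval 2.13 to 2.43), a log2 difference of 1.19 that ranked 300 among 12772 genes. Its level was 111 FPKM in stretched and 35.8 FPKM in control, a ratio of 3.11 on that scale. The authors' deposited table gives a log2 fold change of 1.19.

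By scaled counts, as they were assigned, Lgals3bp passed 2-fold only with those of a short partial transcript included. The 2330-base transcript, the only 1 of the gene's 5 with a complete coding sequence, had 2428 counts in stretched and 1347 in control. Alone it was 1.97-fold higher in stretched (log2 difference 0.98, counting interval 0.88 to 1.07), just under the 2-fold limit and above the 1.5-fold limit. That interval includes the 2-fold limit. A 2-exon transcript of 686 bases, annotated as coding but with an incomplete coding sequence, had 391 counts in stretched and 2 in control, a log2 difference of 7.42 with a counting interval of 5.87 to 10.79. It took 13.8% of the gene's counts in stretched (exact binomial 95% interval 12.6% to 15.2%) and 0.15% in control (0.018% to 0.53%). All 686 of its bases lie within exons of the full-length transcript, and its last 655 bases are identical to the end of that transcript, so its junction is what tells it apart. Being short, it added 39.1 FPKM to the gene in stretched and 0.095 FPKM in control, and the full-length transcript alone had 71.7 FPKM and 35.4 FPKM, a ratio of 2.03. Whether the 391 counts come from this transcript or from reads of the full-length one was not tested. The lines below show the junction of the short transcript and the same place in the full-length one, from GENCODE M21 (GRCm38 chromosome 11, minus strand), with the 20 shared bases in capitals.
Lgals3bp 686-base transcript: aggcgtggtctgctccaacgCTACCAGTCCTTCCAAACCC
Lgals3bp 2330-base transcript: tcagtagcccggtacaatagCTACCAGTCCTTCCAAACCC

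Lgals8 encodes galectin 8, which binds sugars exposed on torn endosomes and lysosomes and, in human cells, recruits the autophagy receptor NDP52. The gene (ENSMUSG00000057554, GRCm39 chromosome 13, 12454296 to 12479825, minus strand) had 1294 counts in stretched and 1093 in control. The log2 difference was 0.37 (counting interval 0.25 to 0.49), a 1.29-fold difference that did not meet either limit. Its level was 35.3 FPKM in stretched and 26.2 FPKM in control. The gene overlaps Heatr1 on the opposite strand, which had 2444 counts in stretched and 2201 in control. The libraries were made with strand marking; the strand setting of the counting is not given.

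Within Lgals8 the counts moved between transcripts far more than the gene total did. The 2843-base transcript had 1 count in stretched and 625 in control, which is 0.077% and 57.2% of the gene's counts. The 2736-base transcript had 963 counts in stretched and 382 in control, or 74.4% (exact binomial 95% interval 72.0% to 76.8%) and 34.9% (32.1% to 37.9%). The 2792-base transcript had 188 counts in stretched and 17 in control. These 3 transcripts share the same coding sequence of 948 bases in the annotation and differ only outside it, and their counts together were 1152 in stretched and 1024 in control. A retained-intron transcript of 2062 bases had 98 counts in stretched and 5 in control, with a log2 difference of 4.29 (3.15 to 6.07). The 6 protein-coding transcripts together had a log2 difference of 0.27. The 2843-base and 2736-base transcripts share 2550 bases of exon, and how the reads of shared exons were divided between them is not covered by a counting interval.

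**Figure D3:**
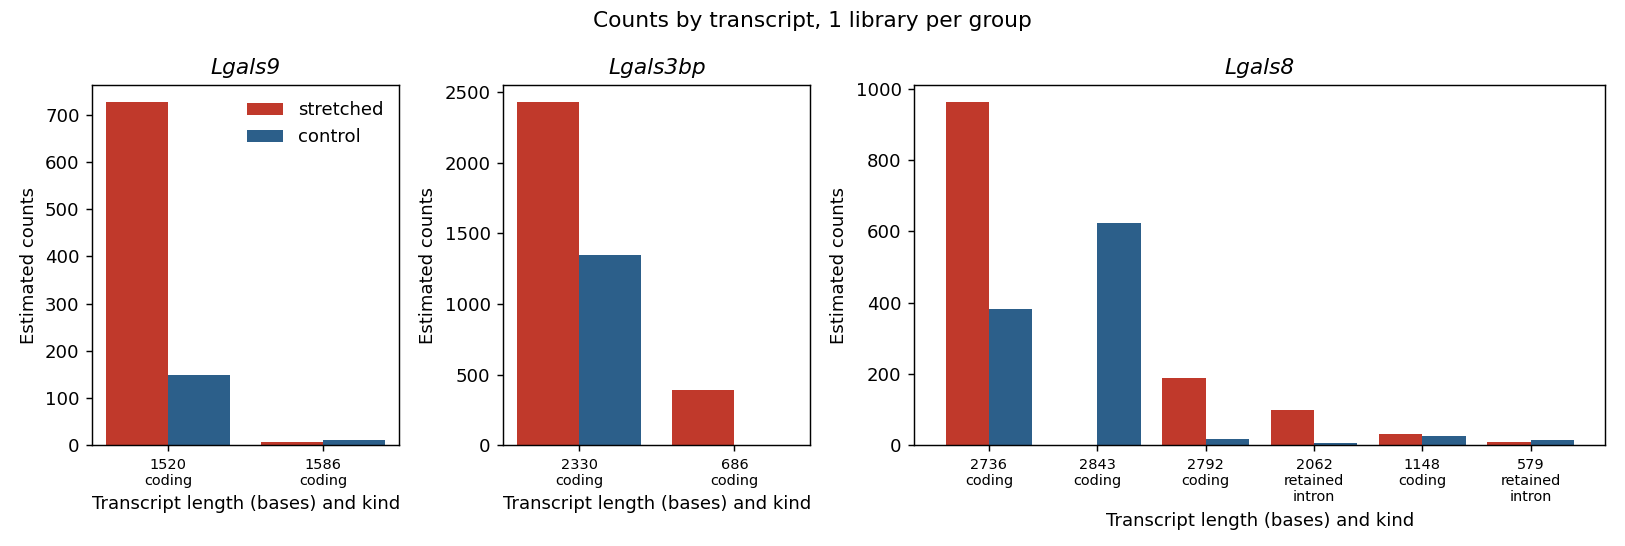
Estimated counts of each transcript with at least 20 counts over both libraries, by length in bases and annotated kind, for Lgals9, Lgals3bp and Lgals8, with the stretched library left of the control library and 1 library per group. The 1520-base form carries Lgals9 in both libraries, the 686-base form of Lgals3bp has 391 counts in stretched and 2 in control, and the 2843-base form of Lgals8 has 1 and 625.

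Lgals3, the most abundant of the 5 genes, and Lgals1 were close to equal in the 2 libraries. Galectin 3 is a long-used marker of macrophages. Lgals3 (ENSMUSG00000050335, GRCm39 chromosome 14, 47605208 to 47623617, plus strand) had 6004 counts in stretched and 6062 in control, with 309 FPKM in stretched and 279 FPKM in control. The log2 difference after scaling was 0.11 (counting interval 0.060 to 0.16). Its level ranked 163 of all genes in stretched and 181 in control. The 3 transcripts with a complete coding sequence, which share it, held 5983 counts in stretched and 6040 in control. Of these, the 1419-base transcript took 41.8% of the gene's counts in stretched (40.5% to 43.0%) and 36.8% in control (35.6% to 38.0%), and the 1298-base transcript 57.9% in stretched and 62.8% in control.

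Galectin 1 is known for dampening T cell responses. Lgals1 (ENSMUSG00000068220, GRCm39 chromosome 15, 78810925 to 78814665, plus strand) had 3166 counts in stretched and 3352 in control, at 273 FPKM and 257 FPKM. The log2 difference was 0.04, with a counting interval of -0.03 to 0.11 that includes no difference. A transcript annotated as subject to nonsense-mediated decay held 33 counts in stretched and 51 in control, and the 800-base coding transcript held the rest, 99.0% of the gene's counts in stretched and 98.5% in control.

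The promoters of Lgals9 and Lgals3bp are shown because this pair met the 2-fold rule, with differences of unlike size. With 1 library per group, whether the 2 genes vary together was not tested. RefSeq sequence (GRCm38.p6) from 250 bases before to 50 after the annotated start was available for 4 of the 5 genes, all but Lgals1. The windows were searched on both strands for GAAANNGAAA, the core of the interferon-stimulated response element; for AANNGAAA, a shorter site for interferon regulatory factors that lies inside every match to the longer one; for TTCNNNGAA, the STAT palindrome; and for GGGANTTTCC, an NF-kB site. The Lgals9 window held 2 matches to GAAANNGAAA, both on the opposite strand, at positions -55 to -46 and 15 to 24 from the RefSeq start, and 3 matches to AANNGAAA, 2 of them inside those. The Lgals3bp window held 1 match, to AANNGAAA, at -14 to -7. The windows of Lgals3 and Lgals8 held no match to any of the 4 motifs. Of 32851 windows of the same length for all genes, 3.44% held GAAANNGAAA, 23.9% AANNGAAA, 8.30% TTCNNNGAA and 0.41% GGGANTTTCC. A match describes letters and not a bound site. The most abundant GENCODE transcripts start 22 bases before the RefSeq start for Lgals9 and 133 bases before it for Lgals3bp. The match in the Lgals3bp window therefore lies after the start of that gene's most abundant transcript. Which start was in use was not tested. For Lgals3 and Lgals8 the starts were not compared, so their windows may not lie at the start in use. Capitals mark matches to GAAANNGAAA or AANNGAAA in chr11:78984875-78985174 for Lgals9 and chr11:118401910-118402209 for Lgals3bp, both read on the minus strand.
Lgals9 promoter: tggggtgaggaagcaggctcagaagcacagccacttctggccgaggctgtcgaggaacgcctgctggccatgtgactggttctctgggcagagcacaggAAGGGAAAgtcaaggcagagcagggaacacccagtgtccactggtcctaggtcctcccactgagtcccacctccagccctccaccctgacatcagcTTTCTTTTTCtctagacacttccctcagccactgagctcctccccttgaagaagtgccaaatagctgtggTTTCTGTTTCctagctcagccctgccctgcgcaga
Lgals3bp promoter: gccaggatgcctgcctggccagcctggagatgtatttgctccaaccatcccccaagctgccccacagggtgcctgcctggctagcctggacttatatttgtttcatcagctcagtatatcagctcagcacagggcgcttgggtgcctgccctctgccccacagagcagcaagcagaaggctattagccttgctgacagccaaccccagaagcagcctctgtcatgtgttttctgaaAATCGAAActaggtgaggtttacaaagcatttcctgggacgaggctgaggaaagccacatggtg

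Most of the interferon-stimulated genes listed were higher in the stretched library. The list was chosen with earlier results of these data known, so its share describes the 2 libraries only. A link between these genes and Lgals9 or Lgals3bp was not tested. Of 10 listed, 8 were higher, 0 lower and 2 met neither side of the 2-fold rule, where 3.12% of all genes were higher and 1.94% lower, and the list's median log2 difference was 2.57 beside -0.0014 over all genes. On the FPKM scale with 1 added before the log2, which gives smaller differences for genes at low levels, 6 of the 10 were higher and the median was 1.13. On that scale Lgals9 was at 2.22 and Lgals3bp at 1.61, both above that median. By scaled counts Lgals9, at 2.33, lay below the list median of 2.57, but its counting interval (2.08 to 2.58) included that median. Its neighbours were Ifit3 at 1.83 (37 counts in stretched, 11 in control) and Ifit1 at 2.36 (63 in stretched, 13 in control). Lgals3bp, at 1.19, lay next to Stat2, a transcription factor of the interferon response, at 1.16 (778 in stretched and 380 in control). The other higher genes were Isg15 at 2.78, Irf7 at 3.24, Rsad2 at 2.90, Usp18 at 2.89 and Oasl2 at 3.88.

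The genes nearest to these members in level and difference were also named. Likeness was taken over the 2 libraries only, as the smallest gap in log2 difference among protein-coding genes within 1.5-fold of the member's FPKM in each library. Of 9 such genes for Lgals9, the nearest were Lyz1, with 702 counts in stretched and 191 in control, a lysozyme gene that is uncertain because its reads may be shared with its close paralog Lyz2, Ifi44 at 2.72 and the MHC class I-like gene H2-T24 at 2.75. Of 12 such genes for Lgals3bp, the nearest were the fatty acid-binding protein gene Fabp5 at 1.19, the immediate early gene Ier3 at 1.20 and the cytokine gene Tnf at 1.22.

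Other galectin genes were scarce or did not differ. Of 7 listed, 6 were found. Lgals7, Lgals12 and Grifin had 0 counts in both libraries, Lgals2 had 1 count in each, and Lgals4, an epithelial galectin, had 11 counts in each. Lgalsl, which encodes a galectin-related protein, had 456 counts in stretched and 519 in control, a log2 difference of -0.06, at 9.38 FPKM and 9.64 FPKM. At this depth a count of 0 allows up to 3 counts per library, for counting error only.

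Genes for proteins that galectins bind at the cell surface did not meet the 2-fold rule. Of 20 listed, 15 reached 20 counts, 0 were higher and 0 lower, where 3.12% of all genes were higher and 1.94% lower. At those shares a list of this size can hold 0 called genes, so nothing is read from the 0. The median log2 difference of the 15 was -0.03. The largest values were 0.35 for Tfrc, the transferrin receptor, with 5257 counts in stretched and 4487 in control, and -0.34 for Spn, the sialoglycoprotein CD43, with 816 and 1127. Havcr2, the galectin 9 receptor gene, had 315 counts in stretched and 283 in control and a log2 difference of 0.28. Lamp1, a lysosomal glycoprotein that galectin 3 binds, had 13074 counts in stretched and 14287 in control, a log2 difference of -0.002 after scaling. P4hb, a protein disulfide isomerase that galectin 9 binds at the surface, had 12725 and 15131, a log2 difference of -0.12. These 2 named genes beyond the largest values, like Havcr2, were picked for their role after their values were seen.

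Of 20 genes of the response to torn membranes, 18 reached 20 counts and 0 were called in either direction by the 2-fold rule. That rule called 3.12% of all genes higher and 1.94% lower, so nothing is read from the 0. The median log2 difference of the 18 was 0.07. Trim16, which works with galectin 3 in autophagy of damaged lysosomes, had 101 counts in stretched and 69 in control (log2 difference 0.67). Tfeb, the transcription factor of lysosome genes, had 188 in stretched and 319 in control (-0.64). Trim16 and Tfeb each passed the 1.5-fold limit, by which 6.2% of all genes were higher and 3.64% lower. Calcoco2, the gene of NDP52, had 0 counts in both libraries.

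Of 19 enzymes that build, branch or cap the sugar chains galectins recognise, 18 reached 20 counts and 0 were called in either direction. Over all genes 3.12% were higher and 1.94% lower, so nothing is read from the 0. The median log2 difference of the 18 was -0.000075. The largest differences were -0.84 for St3gal6, a sialyltransferase, with 1373 counts in stretched and 2673 in control, and 0.65 for the lysosomal sialidase gene Neu1, with 1828 in stretched and 1270 in control. Both were past 1.5-fold, where 6.2% of all genes were higher and 3.64% lower. Mgat5, which makes the branched chains that galectin 3 binds best, had 516 in stretched and 436 in control (0.37), and St6gal1, whose product caps galactose with a sialic acid that blocks galectin 1, had 278 in stretched and 411 in control (-0.44). These last 2 were picked for their role after their values were seen.

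**Figure D4:**
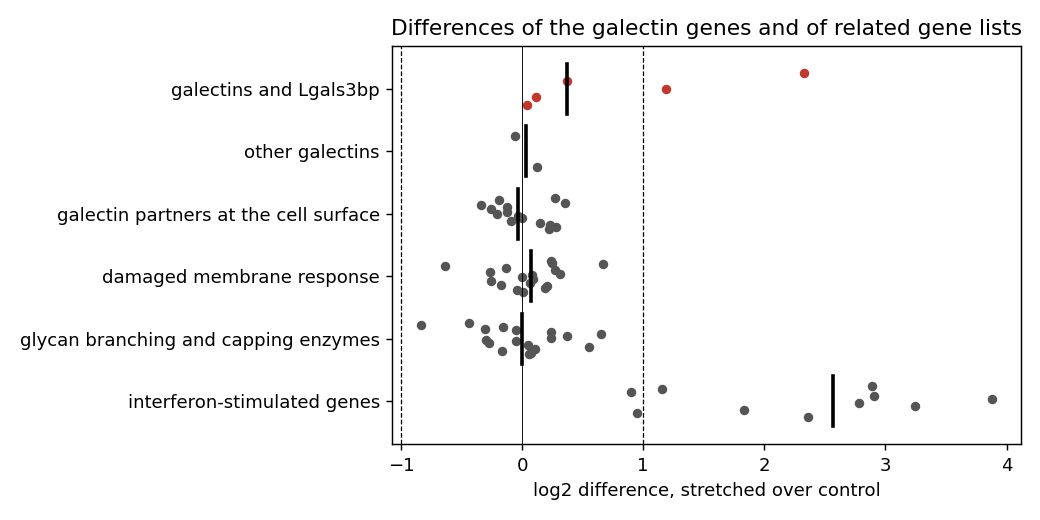
The log2 difference (stretched over control) of each gene with at least 20 counts over both libraries, 1 point per gene, by gene list; thick black bars are list medians and dashed lines mark 2-fold. Lgals9 and Lgals3bp fall in the range of the 10 interferon-stimulated genes (0.90 to 3.88), and every gene of the 4 lists between them falls between -0.84 and 0.67.

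The differences of the 5 genes kept their sign under all 8 ways of computing them, each from the same 2 libraries. For Lgals1 the counting interval included no difference in all 8, so its sign is not resolved. Lgals9 stayed between 2.22 and 2.34 and Lgals8 between 0.27 and 0.41. Lgals3 stayed between 0.069 and 0.15 and Lgals1 between 0.0010 and 0.084. Lgals3bp spanned 0.98 with its full-length transcript alone to 1.61 on the FPKM scale with 1 added before the log2.

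**Figure D5:**
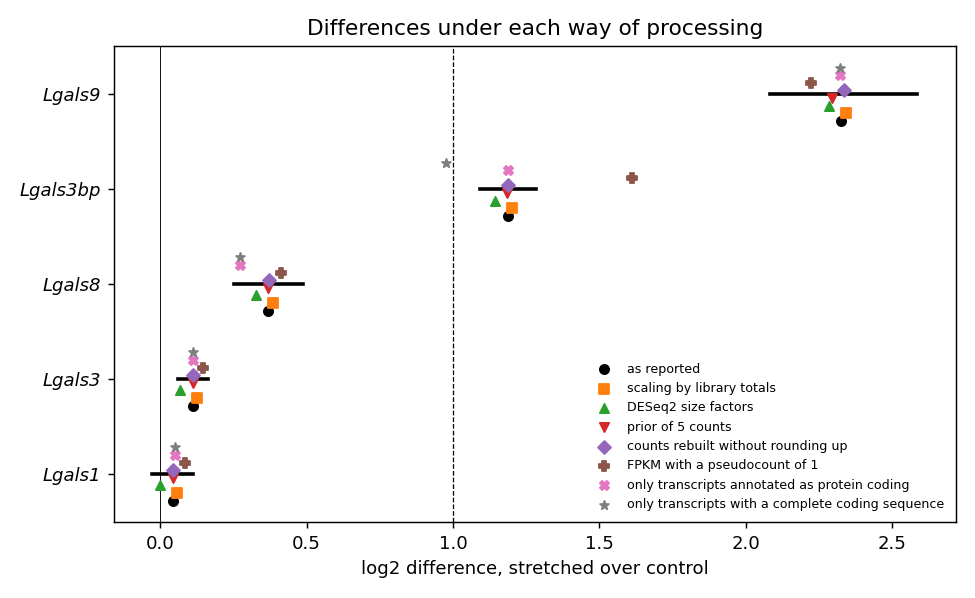
The log2 difference (stretched over control) of each gene under 8 ways of processing, 1 symbol each; black bars are 95% counting intervals of the reported value and the dashed line marks 2-fold. Lgals9 lies beyond 2-fold in all 8, Lgals3bp in 7, and Lgals8, Lgals3 and Lgals1 in 0.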

How the data were processed

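Per the submitters' processing notes, reads were handled with StringTie on GRCm39. The aligner, versions and strand setting are not given in the sources used. The authors' gene and transcript tables give, per the file headers, estimated counts and FPKM. The authors' table of 23250 genes adds a log2 fold change and p-values, per the file headers; its p-values are not printed, since 1 library per group measures no variation between cultures. The control and tensile columns were matched to the samples titled NC and Tensile.

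Here the deposited estimated counts, which are whole numbers, were scaled with TMM factors (edgeR 4.0.16, R 4.3.3). The log2 difference has a prior of 0.5 counts and an exact conditional binomial 95% interval (scipy 1.17.1), which covers counting error only: reads without molecular identifiers are not independent molecules. The interval code was tested on simulated data. Levels between genes were compared in FPKM. Transcript structure came from GENCODE M21 (GRCm38), whose lengths matched the deposited ones for 27 of 27 transcripts; gene coordinates are those of the deposited table (GRCm39). The 10 related gene lists hold 112 entries. Named from each list were up to 8 genes that met the 2-fold rule, or otherwise the 2 largest differences; for each member past 1.5-fold, the 3 most alike genes were named. Members and lists were chosen with earlier results of these data known. Alternatives were library totals, DESeq2 1.42.0 size factors, a prior of 5, FPKM with 1 added, no count filter and a 1.5-fold limit. Further ones were subsets of transcripts and counts rebuilt from transcript FPKM and length without rounding up.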

Additional observations from a re-analysis of the deposited data

How the results depend on the processing

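The 5 differences and the counts of members called were recomputed under the alternatives, and 48 of 51 values stayed within the counting interval or count of the reported ones. Exceptions were all from Lgals3bp. Its log2 difference of 1.19 became 1.61 as FPKM with 1 added before the log2, and 0.98 with only transcripts that have a complete coding sequence, an alternative chosen after seeing the data; with that choice 1 member was called higher instead of 2. Both follow from the counts assigned to the 686-base transcript, which raises FPKM through its short length and is left out of the complete ones. Of 90 list counts and medians, 88 stayed within 1.5 times the reported count or 0.1 of the reported median; the median of interferon-stimulated genes became 2.30 with a prior of 5 and 1.13 as FPKM with 1 added, where 6 of them instead of 8 were called higher. Over all genes, the number past the 2-fold rule with FPKM was 149 higher and 68 lower, against 398 and 248 as reported; with a prior of 5 it was 338 and 181, and with no count filter 538 and 370. DESeq2 size factors moved the median of all genes to -0.04. No paired analysis was possible because each group has 1 library. The 1.5-fold limit and no count filter gave the same counts of members. Depth limits the scarce transcripts, such as the long form of Lgals9 with 8 counts in stretched and 12 in control.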
